A study of Drosophila melanogaster with 18 samples.

Results

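The genes described here changed in the same direction in Drosophila melanogaster ovaries of both mutants of the deubiquitinase (DUB) module of SAGA, those labelled Ataxin-7 and those labelled non-stop. A gene was taken as a member when the mean of log2(RPKM + 1) differed from that of the FRT control by at least 0.5 in the same direction in both experiments. RPKM is the number of reads on a gene per kilobase of gene length, scaled to the size of the library. Of 15682 genes in the table, 7482 had a mean of at least 1 RPKM over the 12 libraries and were tested, and 196 of these were members, 131 higher in both mutants and 65 lower in both. The 0.5 limit used the values of these 12 libraries, so the size and direction of the members' changes describe how they were chosen and carry no test.

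RNA was sequenced from whole ovaries in 3 experiments with 3 mutant and 3 FRT libraries each, 18 in all. The experiments labelled 1799 (ataxin7 and wt) and 1846 (nonstop and wt) gave the 12 libraries used for the members, and experiment 1764 (ada2b and wt) gave 6 libraries that had no part in choosing them. All groups, FRT controls included, came from flies kept at 25 °C and heat-shocked as larvae at 37 °C for 2 h on each of 2 days to induce germline clones, with 2 to 3 days on yeast for the females ahead of dissection. Clones are made in the germ line while whole ovaries, somatic follicle cells included, were sequenced, so a difference can come from fewer cells of a type or from less RNA per cell, which cannot be told apart in these libraries. Alleles and the age of the flies are not given in the sources used here. The labels call the 3 libraries of a genotype biological triplicates.

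SAGA is a transcription coactivator with separate enzyme modules. Its acetyltransferase module, which holds Gcn5 and Ada2b, acetylates histone H3, and its DUB module removes ubiquitin from histone H2B. The DUB module is made of the protease Non-stop, Sgf11 and E(y)2, and Ataxin-7 connects it to the rest of the complex.

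The mutated genes were measured first. In experiment 1846, non-stop (not) was at 1.52, 1.82 and 1.58 RPKM in the mutant libraries and at 17.9, 21.4 and 23.98 RPKM in FRT. Atxn7 went the other way in experiment 1799, with 12.5, 12.5 and 12.4 RPKM in the libraries labelled Ataxin-7 and 7.59, 7.92 and 7.65 RPKM in FRT, so the Atxn7 RNA level does not set these libraries apart as a loss and the label is kept as given. Where mutant libraries or mutants are named together here, the word means the libraries so labelled. Neither gene overlapped between its groups, at an exact two-sided permutation p of 0.1, the smallest that 3 libraries against 3 allow. The partner Sgf11 was at 36.1, 35.1 and 35.3 RPKM in the libraries labelled Ataxin-7 against 30.4, 33.3 and 33.3 in FRT, and at 35.9, 33.4 and 31.6 against 24.8, 28.03 and 27.9 in the non-stop experiment. For e(y)2 the values were 39.7, 37.3 and 35.9 against 46.3, 44.8 and 39.8, and 29.1, 28.7 and 29.3 against 37.3, 37.2 and 38.5. Sgf11 was thus higher and e(y)2 lower without overlap in both experiments, but neither reached 0.5 in both and neither was a member. None of the 4 genes of the DUB module, the 4 of the acetyltransferase module or the 13 of the SAGA core was a member.

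The 12 libraries held 32894772 to 37394036 reads on genes, and 1 RPKM on a gene of 1 kb stood for at least 30.63 reads. Replicates correlated at a Pearson r of 0.986 to 0.996 across genes and no pair matched within read sampling, which would give a chi-square of about its degrees of freedom, the lowest ratio being 9.05. Germline markers were present in every group, at a summed 438 to 460 RPKM in the libraries labelled Ataxin-7 and 434 to 473 in FRT, and at 280 to 317 in non-stop and 300 to 312 in FRT, where 5 of 7 markers were in the table. The 12 follicle cell markers summed to 36944 to 43250 RPKM against 43445 to 49819 in the Ataxin-7 experiment and to 13517 to 18471 against 9457 to 17854 in the non-stop experiment. Of 17 muscle markers 15 were in the table, and they summed to 103 to 133 RPKM against 67.7 to 84.7 and to 94.0 to 148 against 92.1 to 123. Markers of fat body, neurons and gut stayed at or below 7.86 RPKM summed in every group. Testis markers, of which 7 or 8 of 13 were at 0, summed to 1.45 to 1.93 RPKM against 2.23 to 2.52 in the Ataxin-7 experiment and to 8.35 to 11.4 against 2.20 to 2.47 in the non-stop experiment, so the latter were higher in non-stop without overlap. The part of these cell types in the members' changes was not tested.

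Across all genes tested, limma fitted with experiment as a block called 3672 genes (49.1%) for the average of both changes at a Benjamini-Hochberg adjusted p under 0.05, 1754 higher (23.4%) and 1918 lower (25.6%). All 196 members were among them, from which nothing is read because the same libraries chose them. Members were few, 1.75% of genes tested for those higher in both and 0.869% for those lower in both, and 88 genes passed 0.5 in opposite directions. The mutant values did not overlap those of FRT in both experiments for 128 of 131 higher members, against 14.6% of all genes tested in that direction, and for 57 of 65 lower members, against 16.8%. The same libraries chose the members, so nothing is read from this contrast. Where a member is called separate or without overlap in these experiments below, that describes its values. Before the filter on low values, 140 genes were higher by the rule and 68 lower. Of the 131 higher members, 37 had an FRT mean under 1 RPKM and passed the filter through the mutant libraries, and 6 of the 65 lower members had a mutant mean under 1 RPKM. Just inside the limit lay Ent2 (-0.50 in the libraries labelled Ataxin-7 and -0.86 in non-stop), Cth (-0.50 and -1.06) and Dhod (-0.50 and -0.69), and just outside it CG5039 (0.50 and 0.67), CG1077 (-0.57 and -0.50) and Culd (2.44 and 0.50).

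**Figure D1:**
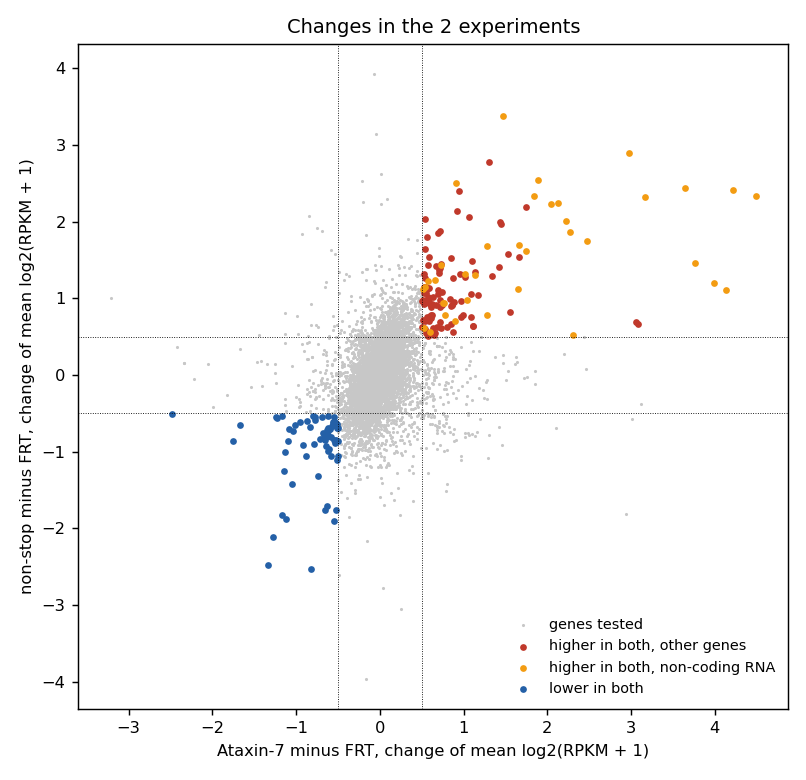
Change of the mean log2(RPKM + 1) against FRT in the libraries labelled Ataxin-7 (horizontal) and in non-stop (vertical), 1 point per gene tested. Dotted lines mark the limit of 0.5; the 131 members higher in both lie in the upper right corner, with snRNA, snoRNA and other non-coding RNA genes in orange, and the 65 lower in both in the lower left corner.

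The median FRT level was 2.53 RPKM for higher members, 17.3 RPKM for lower members and 17.6 RPKM for all genes tested. FRT values were part of the rule, and the 37 higher members under 1 RPKM in FRT could pass only through the mutant libraries, so nothing is read from these medians. The shares of gene classes are set beside those of the table. Genes of snRNAs made up 9.92% of higher members and 0.321% of genes tested, snoRNAs 4.58% against 1.63%, and other non-coding RNAs 13.7% against 1.40%. Protein-coding genes were 66.4% of higher members, 93.8% of lower members and 91.0% of genes tested. Among annotated genes, 38.1% of higher members and 23.8% of lower members had no intron, against 14% of those tested, and within protein-coding genes the shares were 20.7%, 23% and 11%. These shares are descriptions, and the low level in FRT and the short length of many non-coding genes come with them. The 37 higher members under 1 RPKM in FRT count in these shares, as do near-identical copies of the same snRNA. Nothing is therefore read from the shares of higher members about gene classes.

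The snRNA genes gave 13 higher members, snRNA:LU among them. They include the spliceosomal snRNAs, the RNA parts of the machine that removes introns. Of 31 snRNA genes listed, 24 were tested, and 17 were called higher and 1 lower, with a median average change of 0.94 against -0.01 for all genes. The filter used the mutant libraries too, and some copies low in FRT passed it only through them, so these counts are descriptions. U2 snRNA, which pairs with the branch site of the intron, was called higher at all 6 copies (median 2.08). Summed over these copies, it was at 31.6, 23.7 and 37.9 RPKM in the libraries labelled Ataxin-7 and 3.03, 3.55 and 3.73 RPKM in FRT, and at 52.7, 84.9 and 123 RPKM in non-stop and 16.9, 15.9 and 19.9 RPKM in FRT. The mutant libraries were separate from FRT in both experiments, with ratios of the means of 9.04 and 4.94. All 6 copies were members, with average changes from 1.68 to 2.21 on the log2(RPKM + 1) scale, and at levels this low that scale gives less than the true fold.

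U5 snRNA, which holds the exons during splicing, had 7 copies in the table and 4 tested, all 4 called higher and 2 of them members. The gene snRNA:U5:23D (FBgn0003934, chromosome arm 2L) led, at 17.4, 16.7 and 24.98 RPKM against 0.887, 1.08 and 1.97 in FRT and at 15.9, 25.2 and 30.5 against 4.53, 2.85 and 4.24. Its average change was 2.74 ± 0.21 (SE, 12 libraries), and the mutant values lay above all FRT values. The other, snRNA:U5:14B, was at 1.24, 2.18 and 3.499 RPKM against 1.32, 0.258 and 0.2603 and at 0.2305, 2.23 and 3.44 against 0.771, 0 and 0.297, and there the groups overlapped. Over all 7 U5 copies in the table, the sum was at 23.4, 20.7 and 33.8 RPKM against 3.82, 2.698 and 3.36 and at 24.1, 40.9 and 49.4 against 10.2, 8.76 and 11.3, so the family was separate from FRT in both experiments.

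U4 and U6 snRNA enter the spliceosome as a base-paired unit. Both tested U4 copies were members and called higher, and snRNA:U4:39B was at 1.901, 2.42 and 2.31 RPKM against 0.6098, 0.198 and 0.2002 and at 2.84, 5.92 and 4.35 against 0.791, 0.435 and 0.685, without overlap. These values rest on few reads, since the 3 U4 copies together had 1 to 5 reads in the FRT libraries of the Ataxin-7 experiment. Of the 2 tested U6 copies snRNA:U6:96Ac was called higher and a member, with an average change of 1.03 ± 0.18. Both tested U4 copies, snRNA:U6:96Ac and snRNA:U5:14B had an FRT mean under 1 RPKM in each experiment. They passed the filter through the mutant libraries, so nothing is read from the counts of these copies. U1 snRNA, which recognises the start of the intron, was less uniform: 2 of 5 copies were called higher and only snRNA:U1:82Eb was a member, at 62.3, 47.4 and 74.6 RPKM against 17.5, 18.7 and 19.7 and at 34.3, 50.6 and 66.7 against 23.4, 21.6 and 20.5. Summed over its 5 copies, U1 was separate from FRT in the Ataxin-7 experiment but not in the non-stop experiment, where it was at 119, 158 and 209.8 RPKM against 124, 121 and 133. Among snRNAs of the minor spliceosome none was a member. U12 was called higher (0.87) but changed by 1.86 in the libraries labelled Ataxin-7 and by -0.12 in non-stop. U11 was not called (0.35), with changes of 0.81 and -0.11, and U4atac was called lower (-0.34), with changes of -0.19 and -0.50. The list also held snRNA:LU, a member with an average change of 1.71 ± 0.32.

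Small nucleolar RNAs guide the processing and modification of ribosomal RNA, and as a class they did not follow the snRNAs: of 122 tested, 10 were called higher and 2 lower, with a median of 0.07. The U3 snoRNA, which is needed for cleavage of the ribosomal RNA precursor, stood apart from the class median, with all 3 genes called higher and all 3 members (median 3.05). Summed, U3 was at 46.9, 47.7 and 64.6 RPKM in the libraries labelled Ataxin-7 against 1.19, 2.31 and 1.66 in FRT, and at 69.3, 84.9 and 85.4 in non-stop against 12.3, 11.7 and 14.6. Every mutant library was above every FRT library of its experiment, and the ratios of the means were 30.9 and 6.204. The first ratio rests on a low control, since the FRT libraries of the Ataxin-7 experiment held 7 to 14 reads on the 3 genes. The gene snoRNA:185 (FBgn0065076, chromosome arm 2R) was at 84.03, 49.9 and 106 RPKM against 10.6, 12.4 and 5.21 and at 53.9, 71.5 and 62.4 against 5.14, 9.61 and 8.31, and snoRNA:Me18S-C1968, within Swim on the same strand, at 38.98, 28.1 and 33.7 against 4.94, 3.75 and 7.29 and at 33.7, 41.2 and 38.8 against 9.07, 7.34 and 17.6. Neither gene overlapped FRT in either experiment, whereas the host Swim changed by 0.26 and -0.10. The only lower member among snoRNAs was snoRNA:CG43051-a, with an average change of -0.83 ± 0.13. The RNA subunit of RNase P (RNaseP:RNA), which trims tRNA precursors, was a higher member at 0.85 ± 0.15.

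Copies of an snRNA or of U3 are near-identical in sequence, and how reads that match several copies were counted is not given in the sources used here, so the value of a single copy is uncertain and the summed values are the safer ones. The labels name polyA RNA, while the mature forms of these RNAs carry no poly(A) tail as background, and mature and extended transcripts were not distinguished.

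**Figure D2:**
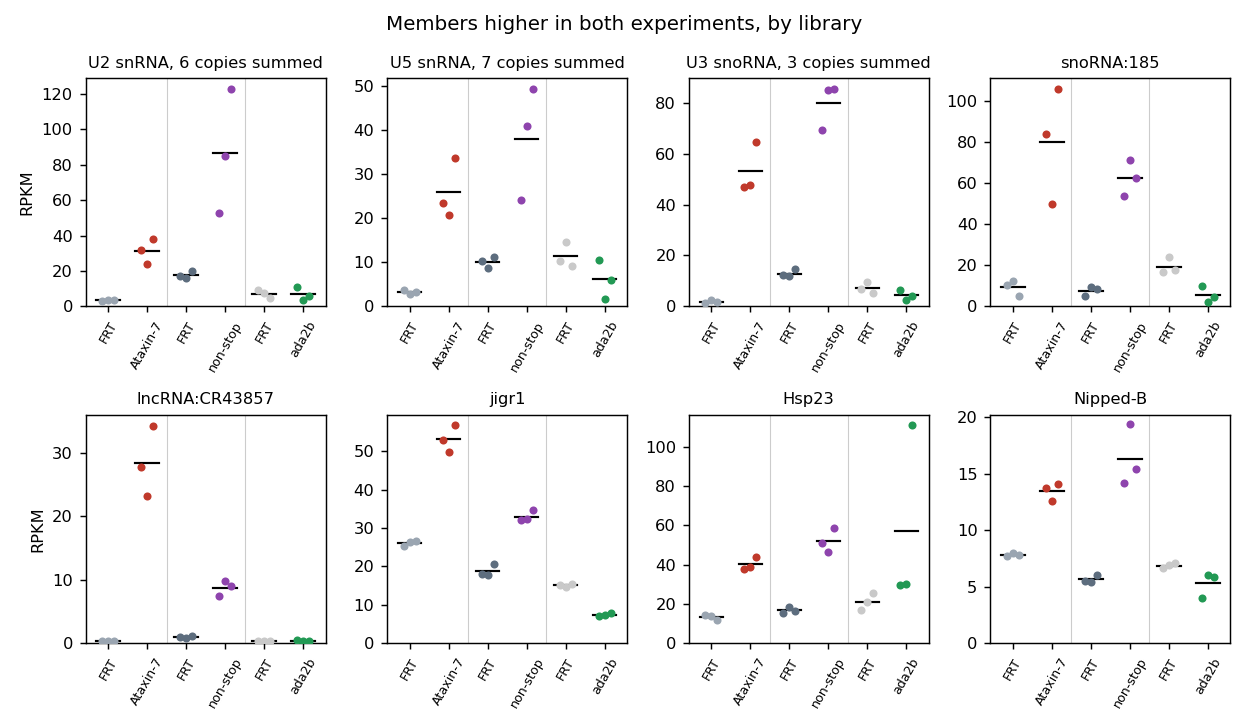
RPKM of 8 members or families higher in both experiments, with 1 point per library, 3 per group, and the group mean as a bar; each vertical axis starts at 0 and has its own scale. The FRT libraries of each experiment stand left of the mutant, and the ada2b experiment, which did not choose the genes, is on the right of each panel; the summed U2, U5 and U3 RNAs are above FRT in the libraries labelled Ataxin-7 and in non-stop and overlap FRT in ada2b.

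Long non-coding RNA genes contributed 10 higher members and no lower member. Of 38 tested, 17 were called higher and 7 lower, against 23.4% and 25.6% of all genes tested. Some of them passed the filter only through the mutant libraries, so nothing is read from these counts. The median of 0.09 was near that of all genes. Of long non-coding RNA genes that overlap a microRNA gene, 15 were in the table and 5 were tested. Of the 5, 4 were called higher and were members, with a median of 2.59. In FRT, lncRNA:CR43857, lncRNA:CR43626 and lncRNA:CR31044 had a mean under 1 RPKM in both experiments. They passed the filter through the mutant libraries, so nothing is read from this count and median. The gene lncRNA:CR43857 (FBgn0264439, chromosome arm 2L), which overlaps mir-275, was at 27.9, 23.3 and 34.3 RPKM in the libraries labelled Ataxin-7 against 0.275, 0.309 and 0.298 in FRT and at 7.38, 9.75 and 8.98 in non-stop against 0.883, 0.8096 and 1.07. This was a ratio of means of 96.9 and of 9.47, and the groups did not overlap. The gene lncRNA:CR43626, which overlaps mir-282, was at 23.8, 20.4 and 25.4 RPKM against 0.569, 1.02 and 0.751 and at 2.07, 2.99 and 2.72 against 0.256, 0.282 and 0.374. For lncRNA:CR43651, which overlaps mir-14, the values were 32.1, 23.3 and 35.4 against 0.655, 1.105 and 1.09 and 5.53, 6.63 and 7.12 against 1.85, 2.01 and 2.91, and lncRNA:CR31044, which overlaps mir-279, was at 6.03, 5.97 and 7.52 against 0.3302, 0.672 and 0.538 and at 1.37, 1.57 and 1.25 against 0.653, 0.548 and 0.806.

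In these 4 genes every mutant library was above every FRT library of its experiment, and each change was larger in the libraries labelled Ataxin-7. The limma test of the difference between both changes, adjusted over all genes and made on the libraries that chose the members, gave differences of 2.16 for lncRNA:CR43857 (adjusted p = 7.89e-06), 2.31 for lncRNA:CR43626 (adjusted p = 3.30e-06), 2.79 for lncRNA:CR43651 (adjusted p = 8.93e-06) and 1.79 for lncRNA:CR31044 (adjusted p = 1.30e-05). The wider set of 90 tested genes that overlap a microRNA gene on the same strand had 30 called higher and 14 lower. Its median was 0.07, and 23.4% of all genes tested were called higher and 25.6% lower. The other member in it was jigr1, whose gene holds mir-92a, at 52.9, 49.7 and 56.9 RPKM against 25.4, 26.5 and 26.7 and at 32.00, 32.3 and 34.6 against 18.1, 17.8 and 20.6, without overlap. Of 15 tested microRNA genes themselves 5 were called higher and 1 lower, against the same shares of all genes. Of these, mir-2496 and mir-4958 were members, and mir-2496 passed the filter through the mutant libraries. The gene mir-2496 was at 19.6, 19.2 and 23.1 RPKM in the libraries labelled Ataxin-7 and 0, 0.2405 and 0.485 in FRT, but at only 1.07, 1.85 and 1.15 in non-stop against 0, 0.264 and 0, and it lies 442 bp from the member east on the same strand. Libraries of this kind measure precursor or host RNA, not the mature microRNA.

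The next long non-coding members do not overlap a microRNA gene. lncRNA:CR43264 was at 55.6, 53.1 and 76.7 RPKM against 14.3, 14.6 and 10.98 and at 17.1, 24.5 and 38.3 against 5.24, 4.01 and 4.52. lncRNA:CR43837 was at 34.9, 29.8 and 38.8 RPKM against 11.9, 11.2 and 12.3 and at 28.5, 35.05 and 28.7 against 1.89, 1.85 and 2.38. Both were separate from FRT in each experiment, and the change of lncRNA:CR43837 was larger in non-stop, with an Ataxin-7 change minus non-stop change of -1.92 (adjusted p = 5.24e-06, limma). Of 96 antisense RNA genes listed, only 8 passed the filter and were tested. Of these, 7 were called higher and 5 were members, with a median of 0.88. The filter used the mutant libraries too, so genes higher in them passed it more readily. Nothing is therefore read from this count and median about antisense RNA genes as a class. The gene asRNA:CR43460, antisense to rdx, was at 4.77, 3.78 and 3.76 RPKM against 1.15, 1.55 and 1.25 and at 2.78, 3.12 and 2.99 against 0.663, 0.497 and 0.666, while rdx changed by -0.21 and -0.26. The library kit keeps strand, but strand use in counting is not stated, so reads of an antisense gene and of its partner may not be separate.

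Heat shock genes code for chaperones that hold unfolding proteins. Of 12 tested, 8 were called higher and 1 lower (median 0.71), against 23.4% higher and 25.6% lower of all genes tested. In FRT, Hsp70Ba, Hsp70Bc and Hsp67Ba had a mean under 1 RPKM in both experiments. These genes passed the filter through the mutant libraries, so nothing is read from this count and median. Summed over 6 Hsp70 copies, Hsp70 was at 24.4, 20.2 and 27.5 RPKM in the libraries labelled Ataxin-7 against 6.87, 10.6 and 8.68 in FRT and at 27.5, 26.6 and 37.1 in non-stop against 6.56, 4.63 and 6.35, and neither experiment had an overlap. The copies Hsp70Aa, Hsp70Ab, Hsp70Ba and Hsp70Bc were members, and Hsp70 copies too are near-identical. The small chaperone Hsp23 was at 37.9, 38.6 and 44.04 RPKM against 14.5, 13.6 and 11.7 and at 50.8, 46.6 and 58.7 against 15.3, 18.4 and 16.6, an average change of 1.55 ± 0.07, and Hsp67Ba was a member at 0.79 ± 0.12. DnaJ-H, a co-chaperone outside the list, was at 32.4, 29.7 and 33.1 RPKM against 20.9, 22.1 and 22.1 and at 36.4, 37.1 and 48.7 against 21.6, 19.7 and 19.9. Hsp22 went the other way, at 5.13, 4.67 and 3.501 RPKM against 7.34, 7.09 and 7.35 and at 4.08, 3.72 and 5.900 against 8.39, 9.53 and 11.96, and it overlaps the member CG4456 on the same strand, so their reads may be shared. Mutant and FRT larvae had both been heat-shocked days before dissection.

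Genes next to centromeres and on chromosome 4, which lie in or near heterochromatin, had a larger share called higher than the rest of the genome. This was noticed in the data, and the borders below were set after the values were seen, so the shares are descriptions. Positions are those of the BDGP6.54 annotation, matched by gene identifier. On chromosome 4, 34 of 54 genes tested were called higher (63.0%) and 5 lower, with a median average change of 0.40, and 4 genes were members, Dyrk3, CG31998, CG11360 and CR43361. The kinase gene Dyrk3 was at 23.8, 22.5 and 23.4 RPKM against 15.5, 15.7 and 14.2 and at 20.2, 24.1 and 19.8 against 5.81, 6.85 and 7.38. Of the genes in the innermost 1 Mb of 2L, 6 Mb of 2R, 5 Mb of 3L and 4 Mb of 3R, 73 of 110 tested were called higher (66.4%) and 6 lower, against 22.5% higher in the remaining 5709 genes of these arms. By arm these were 10 of 15, 36 of 51, 24 of 39 and 3 of 5 genes, and the innermost 1 Mb of X had 11 of 27 (40.7%). The medians were 0.25 in the libraries labelled Ataxin-7 and 0.47 in non-stop, so most of these genes stayed under the limit and 11 were members, all higher.

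Of the 11, Nipped-B and vtd act in sister chromatid cohesion, the ring that holds replicated chromosomes together. The cohesin loader Nipped-B (FBgn0026401, chromosome arm 2R) was at 13.7, 12.6 and 14.04 RPKM in the libraries labelled Ataxin-7 against 7.73, 7.96 and 7.77 in FRT and at 14.1, 19.4 and 15.4 in non-stop against 5.51, 5.39 and 5.99. The gene vtd, which encodes the cohesin subunit Rad21, was at 20.1, 17.6 and 18.6 RPKM against 11.8, 11.8 and 12.2 and at 15.7, 18.98 and 15.7 against 7.64, 8.796 and 9.405. ZnT41F, a zinc transporter gene, was at 4.57, 4.098 and 4.92 RPKM against 1.43, 1.58 and 1.55 and at 6.11, 7.03 and 6.46 against 1.94, 1.81 and 2.19. All of these were separate from FRT in both experiments. The adherens junction gene alpha-Cat and uex were members with average changes of 0.57 ± 0.05 and 0.81 ± 0.09, and the others were CG12567, CG17486, CG40045, CG40228, CG41099 and CR41519. In the ada2b libraries the same 110 positions gave 105 tested genes, 14 called higher and 43 lower, and chromosome 4 gave 14 higher and 17 lower of 54, beside 23.5% higher and 43.9% lower of 7345 genes tested in both fits, from which nothing is read about the regions in ada2b.

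**Figure D3:**
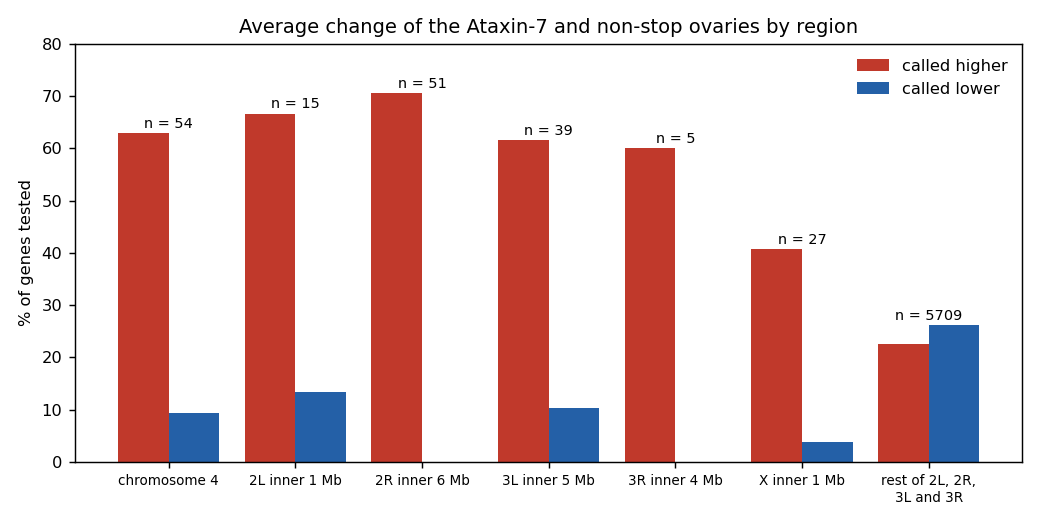
Share of genes tested that limma called higher (red) or lower (blue) for the average of both changes, in percent, by region; n is the number of genes tested. Chromosome 4 and the innermost parts of the 4 autosomal arms have 60% to 70.6% called higher, against 22.5% in the rest of these arms, and the region borders were set after the values were seen.

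Further higher members were chosen for naming after their values were seen. Asph, an aspartyl hydroxylase gene, was at 13.4, 12.4 and 15.1 RPKM against 3.11, 4.14 and 3.702 and at 18.9, 19.2 and 19.5 against 5.27, 5.799 and 6.904, with nearly equal changes of 1.66 and 1.54. Genes of defence included PPO3, a prophenoloxidase that makes melanin, at 1.52, 1.53 and 1.86 RPKM against 0.182, 0.248 and 0.262 and at 5.31, 4.16 and 4.73 against 1.14, 0.985 and 1.01, and GNBP3, a receptor for fungal glucan, with an average change of 1.30 ± 0.20. Both genes were separate from FRT in each experiment. Membrane traffic was represented by Syx1A, a syntaxin, at 0.67 ± 0.04 and EndoA, an endophilin, at 0.64 ± 0.04, and gap junctions by the innexin Inx7 at 0.92 ± 0.07. Megator (Mgtor), a nuclear pore basket protein, was at 53.1, 50.6 and 54.2 RPKM against 36.8, 37.5 and 36.01 and at 74.6, 77.5 and 77.5 against 34.98, 37.2 and 43.99, and the chromosome proteins nod, a kinesin-like motor of meiosis, and Lhr, a heterochromatin protein, had average changes of 0.57 ± 0.07 and 0.70 ± 0.05. Adh, alcohol dehydrogenase, was at 188, 199 and 215 RPKM against 95.2, 88.2 and 92.6 and at 220.4, 218 and 203 against 151, 137 and 125, and its overlapping neighbour Adhr had the same reads in every library, so both of these members rest on the same reads.

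Among lower members, Jheh3 (FBgn0034406, chromosome arm 2R), a juvenile hormone epoxide hydrolase, had the largest average change of the 65 (-1.91 ± 0.18), at 3.701, 5.26 and 4.81 RPKM in the libraries labelled Ataxin-7 against 13.1, 12.3 and 13.5 in FRT and at 2.33, 1.95 and 1.99 in non-stop against 15.6, 16.4 and 16.8. The mutant level was 0.354 and 0.128 of FRT, and no library overlapped. Of 32 cytochrome P450 genes tested, 4 were called higher and 11 lower, against 23.4% and 25.6% of all genes tested. Lower members numbered 4, among them the near-identical Cyp12d1-p and Cyp12d1-d. No change of the family is read from these counts. Cyp12d1-p was at 2.88, 2.85 and 2.601 RPKM against 8.03, 7.94 and 8.52 and at 0.349, 0.423 and 0.434 against 4.700, 6.17 and 4.51, and Cyp12d1-d, its near-identical neighbour 1773 bp away, followed it with changes of -1.16 and -1.82. Cyp6d4 was at 1.92, 1.77 and 1.71 RPKM against 9.91, 7.88 and 7.64 and at 1.96, 2.12 and 2.41 against 5.13, 5.29 and 3.92, and Cyp12a4 changed by -1.13 and -1.003. None of these 4 genes overlapped FRT in either experiment, and another P450 gene, Cyp6t1, was a higher member at 0.80 ± 0.10.

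The gene pst (pastrel, FBgn0035770, chromosome arm 3L), known for its part in resistance to viruses, was at 10.3, 13.1 and 13.7 RPKM against 27.6, 29.2 and 26.6 and at 8.12, 8.32 and 7.13 against 35.1, 28.8 and 30.9. CG11454 was at 15.9, 16.5 and 11.7 RPKM against 33.6, 32.9 and 33.4 and at 13.4, 12.2 and 14.1 against 31.1, 33.3 and 34.3, and it overlaps ND-15 on the same strand, which changed by -0.34 and -0.37. Pus10, a pseudouridine synthase gene 9311 bp from it, overlaps ND-15 on the other strand and had an average change of -1.03 ± 0.12. The remaining leading genes were CG11892 (-1.24 ± 0.20), modSP, a serine protease of the Toll pathway (-0.97 ± 0.08), and CG9498 (-0.97 ± 0.19).

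The following lower members were chosen for naming after their values were seen. Gapdh2, a glycolytic enzyme, was at 754, 793 and 702 RPKM against 1167, 1092 and 1182 and at 758, 671 and 746 against 1134, 1253 and 1139.8. Mtpbeta, for fatty acid oxidation, was at 93.3, 100.2 and 92.5 RPKM against 139, 134 and 149 and at 114, 86.2 and 100.4 against 143, 169 and 155. The desaturase Desat1, the pentose phosphate enzyme Rpi and the cystathionine lyase Cth had average changes of -0.60 ± 0.04, -0.81 ± 0.10 and -0.78 ± 0.10, the haem synthesis enzyme Pbgs -1.21 ± 0.17 and the pyrimidine synthesis enzyme Dhod -0.60 ± 0.04. These genes were separate from FRT in both experiments. The histone variant gene His3.3A was the only lower member of the histone list (92 tested), at 85.1, 91.04 and 82.5 RPKM against 117, 122 and 129 and at 91.5, 78.7 and 80.6 against 129, 138 and 138, and Nepl3, which overlaps it on the other strand, was a higher member at 0.57 ± 0.05. Rrp4, a subunit of the RNA exosome, was at 17.7, 17.6 and 18.4 RPKM against 29.4, 29.8 and 30.9 and at 25.6, 22.3 and 25.04 against 47.2, 43.1 and 42.3.

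Of 8 genes for oocyte kinases and egg activation, 1 was called higher and 3 lower, against 23.4% and 25.6% of all genes tested. The gene png was a member. It encodes a kinase that releases maternal RNAs for translation, and was at 21.99, 19.2 and 18.6 RPKM against 29.2, 28.3 and 36.4 and at 45.1, 35.4 and 43.6 against 59.1, 77.2 and 72.5, without overlap. Vm26Ab, an eggshell protein of the vitelline membrane, was the only member of 7 in its list, at 6079.7, 7976 and 7889.5 RPKM against 11977, 11629 and 8971 and at 1228, 1038 and 678 against 1985, 1469 and 1169, and non-stop overlapped FRT there. Vitelline membrane genes summed to 27755 to 31283 RPKM against 29465 to 37877 in the Ataxin-7 experiment and to 3901 to 6397 against 5487 to 9460 in the non-stop experiment, chorion genes to 15760 to 18082 against 21968 to 24016 and to 9069 to 11470 against 3658 to 8123. The part of egg chamber stage in these values was not tested. The white gene (w), whose product carries eye pigment precursors and which is a common marker on fly chromosomes, was at 0.1205, 0.141 and 0.211 RPKM against 5.48, 5.42 and 5.42 and at 0.173, 0.121 and 0.115 against 0.607, 0.7103 and 0.529, separate in each experiment, and whether the fly stocks differed at it was not tested.

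**Figure D4:**
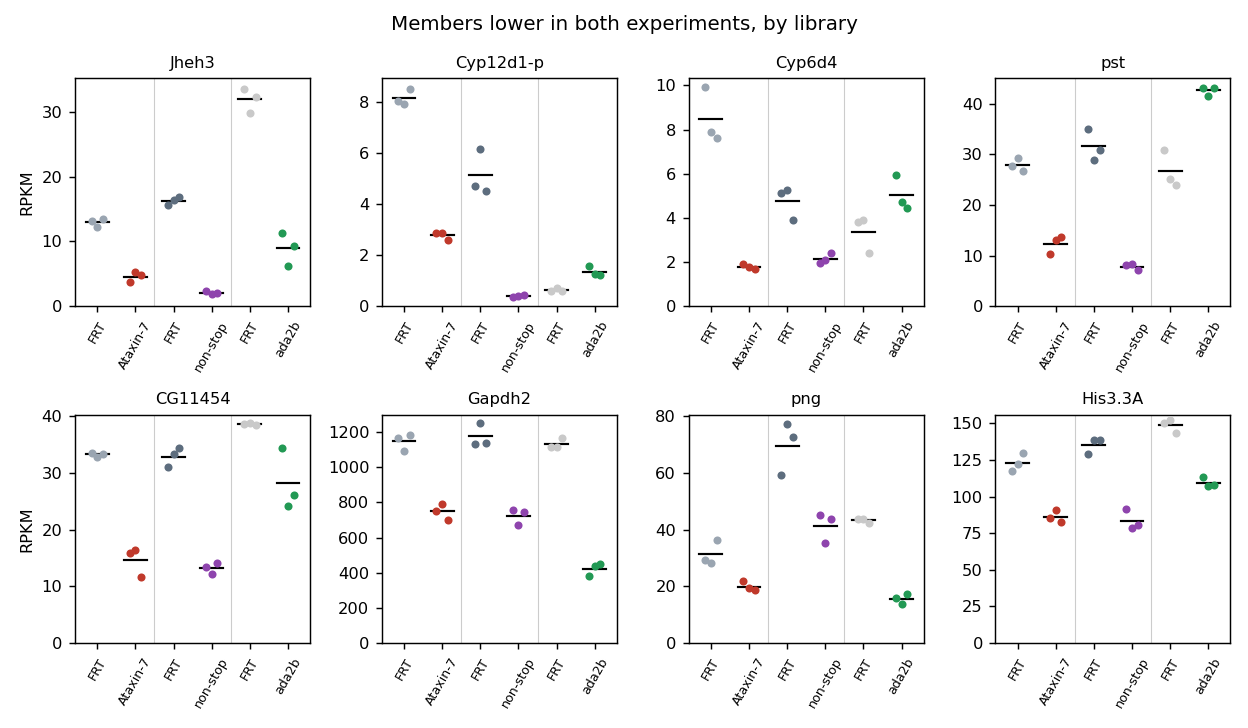
RPKM of 8 members lower in both experiments, with 1 point per library, 3 per group, and the group mean as a bar; each vertical axis starts at 0 and has its own scale. In each panel the points of the libraries labelled Ataxin-7 and of non-stop lie below those of their FRT libraries. On the right, the ada2b mean is below that of FRT for Jheh3, CG11454, Gapdh2, png and His3.3A. It is above that of FRT for Cyp12d1-p, Cyp6d4 and pst.

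Cytoplasmic ribosomal protein genes were mostly called lower for the average of both changes but held no member. Of 81 tested, 76 were called lower, with a median average change of -0.46. The medians were -0.13 in the libraries labelled Ataxin-7 and -0.77 in non-stop, so the average came mainly from non-stop. None passed 0.5 in both experiments. The germline and germ plasm list (9 tested, 4 higher and 1 lower), the piRNA pathway (12 tested, 3 higher and 1 lower) and the glutathione S-transferases (23 tested, 2 higher and 8 lower) also held no member. Of all genes tested, 23.4% were called higher and 25.6% lower.

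Some members lay close to each other on the chromosome. Within 10000 bp, 27 pairs of members involved 43 of 189 annotated members, and 21 pairs changed in the same direction. How many such pairs all genes tested would give was not examined, so nothing is read from these counts. The member pairs include the gene pairs named above and snRNA genes that share a locus, such as snRNA:U4:38AB with snRNA:U2:38ABb and snRNA:U2:38ABa. Others are overlapping genes that cannot be counted apart, such as HemK2 and Snapin, which had identical reads and are counted above as 2 members. At the small heat shock gene cluster on 3L, Hsp23 and Hsp67Ba were higher while Hsp22 and CG4456 were lower.

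The size of the change differed between the mutants for 53 of 131 higher members and 19 of 65 lower members by the limma test of the difference, against 37.5% of all genes tested, where members are limited to changes of the same sign and were chosen from the same libraries. The median change was 0.76 in the libraries labelled Ataxin-7 and 1.06 in non-stop for higher members, and -0.66 and -0.79 for lower members.

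In the ada2b libraries, which had no part in the choice, the members had no common direction. Of 105 higher members tested there, limma called 24 higher and 40 lower, against 23.5% higher and 43.9% lower of 7345 genes tested in both fits, and the median change was -0.08 against -0.16 for all genes. Of 60 lower members tested, 16 were called higher and 27 lower (median -0.16). Scaled to a common median, the counts of higher members became 38 higher and 29 lower, and those of lower members 21 and 20, while 38.3% of all genes were then called higher and 29.0% lower and the median of all genes moved from -0.16 to 0.08. All of these counts move with those of the whole table. The ada2b libraries differed more from each other than those of the other groups (Pearson r down to 0.963), and 9 of 10 tested muscle genes were called higher there (median 2.88).

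Summed U2 snRNA was at 10.7, 3.84 and 5.91 RPKM in ada2b and 8.98, 7.395 and 4.72 in FRT, and U3 at 6.55, 2.43 and 4.21 against 6.72, 9.67 and 5.08, both overlapping. Of 14 snRNA genes tested in ada2b, 2 were called higher and 2 lower. The gene snRNA:U5:23D was lower in ada2b at 2.995, 0.734 and 2.21 RPKM against 7.92, 11.4 and 8.25, and snoRNA:185 at 9.81, 2.33 and 4.39 against 16.7, 23.98 and 17.5 and snoRNA:Me18S-C1968 at 1.39, 1.51 and 2.504 against 22.7, 26.1 and 15.2 were lower as well, all without overlap. This stood against the snoRNA class as a whole, of which 106 of 119 tested genes were called higher in ada2b. Of higher members that were called higher in ada2b too, lncRNA:CR43264 was at 80.1, 19.96 and 29.2 RPKM in ada2b against 10.1, 9.08 and 7.72 and ZnT41F at 3.702, 3.31 and 3.66 against 1.48, 1.33 and 1.56, with adjusted p of 0.0101 and 2.21e-04 by limma. Hsp70 varied widely, at 26.1, 112 and 273 RPKM summed in ada2b and 55.8, 89.8 and 43.3 in FRT, and limma gave the 4 member copies adjusted p-values from 0.255 to 0.714. Gapdh2 fell to 383, 438 and 447 RPKM against 1117, 1118 and 1166, a limma adjusted p of 4.91e-05, png to 16.03, 13.6 and 17.1 against 43.7, 43.8 and 42.4 and Jheh3 to 11.3, 6.22 and 9.28 against 33.5, 29.8 and 32.3, so these 3 lower members were below FRT in ada2b as well. The fall of png in ada2b was not particular to it, since all 8 tested genes of its list were called lower there (median -1.60). Of all genes tested in both fits, 43.9% were called lower in ada2b. In the other direction pst was at 43.2, 41.6 and 43.2 RPKM against 30.9, 25.1 and 24.03 and CG11892 at 22.2, 18.97 and 13.4 against 1.73, 2.701 and 8.09, both called higher. Xrp1, a stress-response transcription factor that was a lower member (-0.67 ± 0.09), was also called higher in ada2b, at 15.2, 18.9 and 22.4 RPKM against 6.84, 7.97 and 8.33.

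A few lower members of modest size in the DUB module mutants were far lower in ada2b. The insulin-like peptide gene Ilp7 was at 4.06, 3.35 and 4.22 RPKM in the libraries labelled Ataxin-7 against 6.83, 6.49 and 6.64, at 2.36, 2.87 and 2.45 in non-stop against 4.85, 7.64 and 4.13, and at 0.681, 1.05 and 0.532 in ada2b against 13.6, 15.2 and 18.2. GILT3, a thiol reductase gene, was at 10.2, 10.04 and 9.34 RPKM against 25.5, 23.1 and 25.7, at 4.33, 5.12 and 3.93 against 8.09, 6.92 and 6.003, and at 1.104, 1.68 and 1.36 against 32.3, 29.1 and 26.8. Their ada2b changes were -3.25 ± 0.15 and -3.68 ± 0.11 (SE, 6 libraries), with adjusted p of 2.69e-05 and 1.50e-05 by limma, and the difference from the DUB module mutants was not tested.

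**Figure D5:**
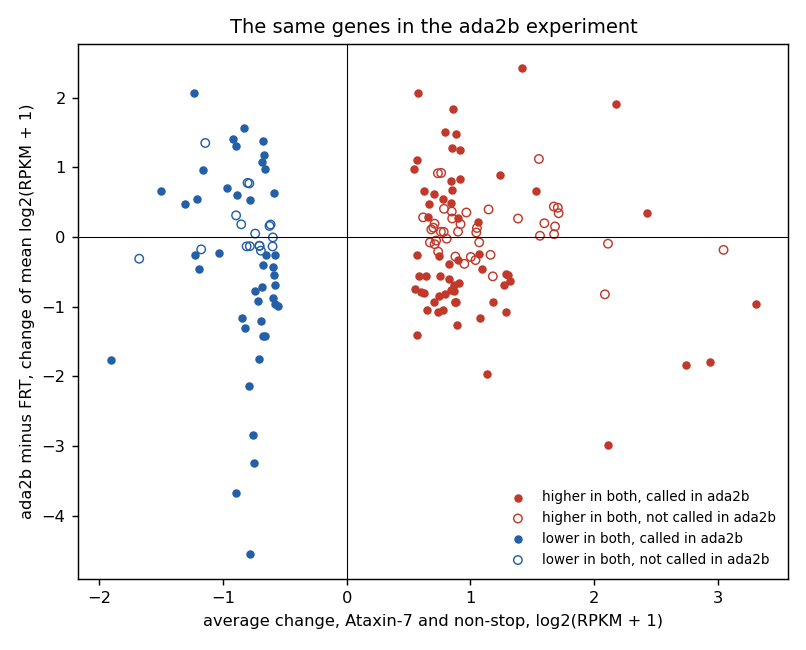
Average change of each member in the Ataxin-7 and non-stop experiments (horizontal) against its change in ada2b (vertical), both on the log2(RPKM + 1) scale; filled points were called in ada2b by limma. Of 105 higher members (red) 24 were called higher and 40 lower, and of 60 lower members (blue) 16 were called higher and 27 lower.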

How the data were processed

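RNA of 18 ovary libraries was measured, and the 12 libraries of the Ataxin-7 and non-stop experiments gave the members. The authors deposited RPKM values, 1 per gene and library, and the processing notes name CASAVA 1.8.2, TopHat2 2.0.13, edgeR 3.14.0 and the build dm3. Within 0.01 read, 100% of the 198944 values above 0 were whole multiples of 1 read, so reads were recovered. The length behind the values equalled the whole gene span, introns included, for 5115 of 10797 genes with introns and the exonic length for 1. Levels were normalized within each experiment, not between experiments, and strand use and the counting of reads with several matches are not given in the sources used here.

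RPKM was used as deposited. The scale was log2(RPKM + 1), and limma 3.58.1 (R 4.3.3) was fitted with experiment as a block and a trended eBayes to the genes at a mean of at least 1 RPKM, two-sided, with Benjamini-Hochberg adjustment over all of them at 0.05. The difference of both changes was fitted as 4 group means, and ada2b against its own FRT over its 6 libraries. Single genes were compared by an exact permutation test. The scripts were tested on simulated data.

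Names, classes and positions are those of BDGP6.54, in which 15002 of the table's 15682 identifiers and all but 7 members were found. The members and the 26 gene lists were chosen with earlier results of these data known. The genes named by rule were the DUB module genes and Ada2b, the 10 higher and 10 lower members with the largest smaller change and no overlap with FRT, list genes that were members, and 3 genes on each side of the limit, and all other genes named were chosen after their values were seen. Pseudocount, filter, scaling, replicate block, leave-one-out, limit and limma voom on the recovered reads were varied. Promoter motifs were not examined. Python 3.11.15 with pandas 2.3.3 made the tables, and matplotlib 3.10.9 drew the plots.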

Additional observations from a re-analysis of the deposited data

Results flagged for a closer look

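Of 56 members named by rule, 18 had a change that differed in size between the 2 experiments by the limma test of the difference. This test took the Ataxin-7 change minus the non-stop change on the log2 scale, adjusted over all genes, on the libraries that chose the members. It called 37.5% of all genes tested, so nothing is read from this count. Among higher members with the larger change in the libraries labelled Ataxin-7, the difference was 3.03 for mir-2496 (adjusted p = 4.65e-06), 2.79 for lncRNA:CR43651, 2.31 for lncRNA:CR43626, 2.16 for lncRNA:CR43857, 1.81 for snoRNA:U3:54Aa (adjusted p = 0.000584), 1.79 for lncRNA:CR31044 and 1.2 for snoRNA:U3:54Ab (adjusted p = 0.00942). This compares changes and not levels, which were normalized within each experiment. It was -1.92 for lncRNA:CR43837, -1.59 for snRNA:LU (adjusted p = 0.0198), -0.61 for lncRNA:CR43785 (adjusted p = 0.0349) and -0.538 for Cyp6t1 (adjusted p = 0.00677), where the larger increase was in non-stop. Among lower members it was 1.15 for Jheh3 (adjusted p = 9.57e-05), 0.841 for Cyp12d1-p (adjusted p = 0.000556), 0.76 for pst (adjusted p = 0.00173), 0.657 for Cyp12d1-d (adjusted p = 0.00566), 0.559 for Cth (adjusted p = 0.00154) and 0.187 for Dhod (adjusted p = 0.0446), where the larger decrease was in non-stop, and -0.889 for Cyp6d4 (adjusted p = 0.00127), where it was in the libraries labelled Ataxin-7.

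For 13 of the 38 members named by rule and tested in ada2b, every ada2b library lay on the other side of its FRT libraries from the direction shared by both DUB module experiments, and limma called 12 of them, all but Hsp22 (0.775, adjusted p = 0.114). Of 7345 genes tested in both fits, limma called 23.5% higher and 43.9% lower in ada2b. Nothing is therefore read from the count of these members. Among lower members the ada2b changes were 2.06 for CG11892, 1.56 for snoRNA:CG43051-a, 1.08 for Ent2, 0.703 for modSP, 0.664 for pst and 0.479 for Cyp6d4. Among higher members they were -2.98 for snoRNA:Me18S-C1968, -1.84 for snRNA:U5:23D, -1.8 for snoRNA:185, -0.962 for snoRNA:U3:54Aa, -0.816 for Cyp6t1 and -0.763 for lncRNA:CR43785. The difference between ada2b and the other experiments was not tested.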

How the results depend on the processing

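Under a pseudocount of 0.1 there were 189 higher and 100 lower members, with limma voom on reads 194 and 104, at a mean of at least 5 RPKM 70 and 50, and at a limit of 1 in each experiment 36 and 7. The counts of members, of genes called for the average change and of genes called for the difference otherwise stayed within 1.5 times under all alternatives run. Scaled to a common median, 38 higher members were called higher in ada2b, against 24, and 29 lower, against 40. Leaving out each library in turn gave 121 to 149 higher and 57 to 70 lower members, 1517 to 1737 genes called higher and 1676 to 1858 lower, 2299 to 3064 genes and 61 to 75 members called for the difference, and for ada2b 18 to 30 and 32 to 44 higher members called higher and lower, and 14 to 16 and 23 to 29 lower members. The replicate numbers did not pair the libraries (correlations of deviations from -0.376 to 0.13 in the 12 libraries). With the replicate block, 1255 genes were called higher and 1436 lower, 2316 genes and 70 members for the difference, and in ada2b 37 in place of 40 higher members were called lower. Among named genes, 1306 values kept their direction and call under an alternative, 12 lost the call, 3 gained it and none turned, and those that lost it were not, Vm26Ab and, under the replicate block, snRNA:U5:14B. Genes at few reads per library, such as single snRNA copies, are limited by depth.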
